A study of Mus musculus with 30 samples.

Results

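The tumour necrosis factor (TNF) receptor and ligand genes examined numbered 10, out of 36103 genes counted in each library. They comprised 8 receptors (Eda2r, Edar, Tnfrsf12a, Tnfrsf1a, Tnfrsf1b, Fas, Cd40 and Tnfrsf10b) and 2 ligands (Eda and Tnfsf12). They were found by gene symbol, and all 10 were present. The set was chosen by the level of Eda2r in the gastrocnemius, its rise in Mtm1-/y over WT libraries, so that difference is described here without a test. The data were 30 RNA-seq libraries of polyadenylated RNA from 2 skeletal muscles (gastrocnemius and diaphragm), the heart and the liver. The mice were male, 5 weeks old and on a pure 129Pas background, and either Mtm1-/y or wild type (WT) from the same litters. Mtm1 encodes myotubularin, a phosphoinositide phosphatase, and its whole-body knock-out models X-linked myotubular myopathy. There were 4 libraries in each of 6 groups, and 3 in the WT liver and the Mtm1-/y diaphragm of RNA from whole organs. The sources used here do not say whether the 4 tissues came from the same mice, and the tests between tissues treated all libraries as independent. In bulk tissue, fewer cells of a type and less RNA per cell cannot be told apart.

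TNF receptors are membrane proteins that trimeric TNF-family ligands cluster on the cell surface. Those with a death domain, such as Fas and Tnfrsf1a, can start apoptosis, while those without one bind TRAF adaptors and activate NF-kB. Eda2r (XEDAR) binds an isoform of ectodysplasin (Eda), signals through TRAF proteins, NIK and non-canonical NF-kB, is a p53 target and has been linked to muscle loss in tumour-bearing mice. Edar is the receptor of the other main ectodysplasin isoform and is best known from the development of hair, teeth and sweat glands. Tnfrsf12a (Fn14) is the receptor of TWEAK, which Tnfsf12 encodes, and is induced in denervated muscle.

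Levels are given as CPM, the usual measure of a gene's counts relative to the library total, after TMM scaling over all 30 libraries, and fold changes come from edgeR fits within each tissue, so the 2 need not match exactly. A gene was called where its p, adjusted by Benjamini-Hochberg over all genes tested in the tissue, was under 0.05. Each library held between 24873817 and 44289343 counts. Mtm1, the targeted gene, lay between 15.8 and 26.9 CPM in the WT libraries and between 3.49 and 8.19 CPM in the Mtm1-/y libraries, with no overlap. Its fall was 4.19-fold in the gastrocnemius (edgeR adjusted p = 2.1e-05) and 3.02-fold in the liver, where edgeR did not call even this gene (adjusted p = 0.37) and DESeq2 did (adjusted p = 1.2e-06). The diaphragm libraries carried liver transcripts. The summed level of 14 hepatocyte markers was 41013, 27398, 574 and 30660 CPM in the 4 WT diaphragms and 3444, 51288 and 896 CPM in Mtm1-/y diaphragms 1, 2 and 4, against 25.8 to 147 CPM in the gastrocnemius. Diaphragm calls are therefore given by edgeR and by DESeq2, and those for Eda2r, Tnfrsf12a and Fas also without Mtm1-/y diaphragm 2.

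Eda2r lies on chromosome X (mm10, 97333840 to 97377216, minus strand) and Tnfrsf12a on chromosome 17 (23675445 to 23677468, minus strand). The upstream sequence of both is shown because these 2 receptors had the largest differences of the 10 genes in both skeletal muscles. The RefSeq promoter table (GRCm38.p6, the mm10 assembly) held 7 of the 10 genes. The 243 bases shown for Eda2r (chrX:97377217-97377459) and the 231 for Tnfrsf12a (chr17:23677469-23677699) end at the annotated gene start and read 5′ to 3′ on the gene's strand. Capitals mark matches to a TATA box (TATAAA), a GC box (GGGCGG) or an E-box (CANNTG) on either strand.
Eda2r: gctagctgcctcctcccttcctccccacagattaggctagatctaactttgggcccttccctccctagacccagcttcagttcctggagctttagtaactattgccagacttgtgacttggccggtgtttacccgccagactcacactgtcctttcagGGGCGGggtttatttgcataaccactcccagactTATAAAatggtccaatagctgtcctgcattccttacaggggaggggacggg
Tnfrsf12a: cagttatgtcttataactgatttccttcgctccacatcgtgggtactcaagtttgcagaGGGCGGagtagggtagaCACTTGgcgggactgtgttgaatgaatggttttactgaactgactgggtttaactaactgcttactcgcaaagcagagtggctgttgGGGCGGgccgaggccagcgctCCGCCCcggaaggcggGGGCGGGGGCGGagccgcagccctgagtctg

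Eda2r had 1 TATA box, at bases -58 to -53 from the RefSeq start, and 1 GC box. Tnfrsf12a had 5 GC boxes, of which the 2 nearest the start adjoin, and 1 E-box. Over 32841 upstream windows of 250 bases, 12.4% held a TATA box, 32.7% a GC box and 66.2% an E-box. Of the 7 windows found here, 1 held a TATA box, 5 a GC box and 4 an E-box. An AP-1 site (TGANTCA), present in 6.75% of all windows, was found only at Fas. Matches to the consensus p53 half-site and NF-kB site, present in 7.13% and 3.9% of all windows, were found in none of the 7, which says only that these letters are not in these windows.

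In the WT gastrocnemius Eda2r measured 12.2, 10.0, 14 and 13.8 CPM, from 251 to 431 counts per library. In the Mtm1-/y gastrocnemius it measured 193, 132, 111 and 113 CPM, from 3701 to 7415 counts. The groups were far apart, at 12.5 ± 1.83 against 137 ± 38.1 CPM (SD, n = 4 each), and Mtm1-/y library 1 was the highest. The fitted difference was 11-fold (log2 fold change 3.47, SE 0.19). Across all alternative settings, the log2 fold change lay between 3.26 and 3.80.

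The diaphragm was not used to choose Eda2r. Its WT libraries measured 9.80, 15.5, 19.1 and 11.3 CPM, and Mtm1-/y libraries 1, 2 and 4 measured 74.2, 29.3 and 84.9 CPM. All 3 Mtm1-/y values lay above all 4 WT values, the lowest being that of library 2. The difference was 4.57-fold (log2 2.19, SE 0.39). It was not called by edgeR (adjusted p = 0.26) and was called by DESeq2 (log2 2.21, adjusted p = 1.0e-05). Without Mtm1-/y library 2 the log2 fold change was 2.53 and edgeR called it (adjusted p = 0.040). That omission leaves the genotypes unequal in hepatocyte marker sums. With the hepatocyte score as a covariate the log2 fold change was 1.93 (adjusted p = 0.038), and with the spread shared over all 30 libraries 2.17 (adjusted p = 0.00024). DESeq2 called Eda2r without each diaphragm library in turn, with log2 fold changes of 1.94 to 2.56 and adjusted p of at most 0.0020. For scale, edgeR called 0.0119% of 16796 genes in the diaphragm, and DESeq2 called 2.37% of 18507.

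WT diaphragm 1 and Mtm1-/y diaphragm 2 had the highest marker sums and the lowest Eda2r level of their groups. The part of liver material in the size of the diaphragm difference was not tested beyond the covariate fit above.

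In the heart, Eda2r measured 5.99, 5.40, 5.18 and 3.26 CPM in WT and 6.72, 4.31, 6.15 and 5.39 CPM in Mtm1-/y libraries. In the liver it was near the detection limit, at 0.409 to 0.581 CPM in WT and 0.286 to 0.763 CPM in Mtm1-/y libraries, from 9 to 18 counts each. The genotypes overlapped in both organs. The heart had a log2 fold change of 0.18 (SE 0.21, edgeR adjusted p = 0.72). That in the liver was 0.06 (SE 0.43, adjusted p = 0.99). The difference in genotype effect, heart minus diaphragm, was -2.0 on the log2 scale (SE 0.45), which DESeq2 called (adjusted p = 0.0061) and edgeR did not (adjusted p = 0.18), in a contrast where DESeq2 called 1.17% and edgeR 0.00573% of all genes. Without Mtm1-/y diaphragm 2, edgeR called this difference too (adjusted p = 0.0098), again with the genotypes unequal in marker sums. Liver minus diaphragm was -2.10 (SE 0.62) and passed neither test (edgeR adjusted p = 0.89, DESeq2 0.28).

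**Figure D1:**
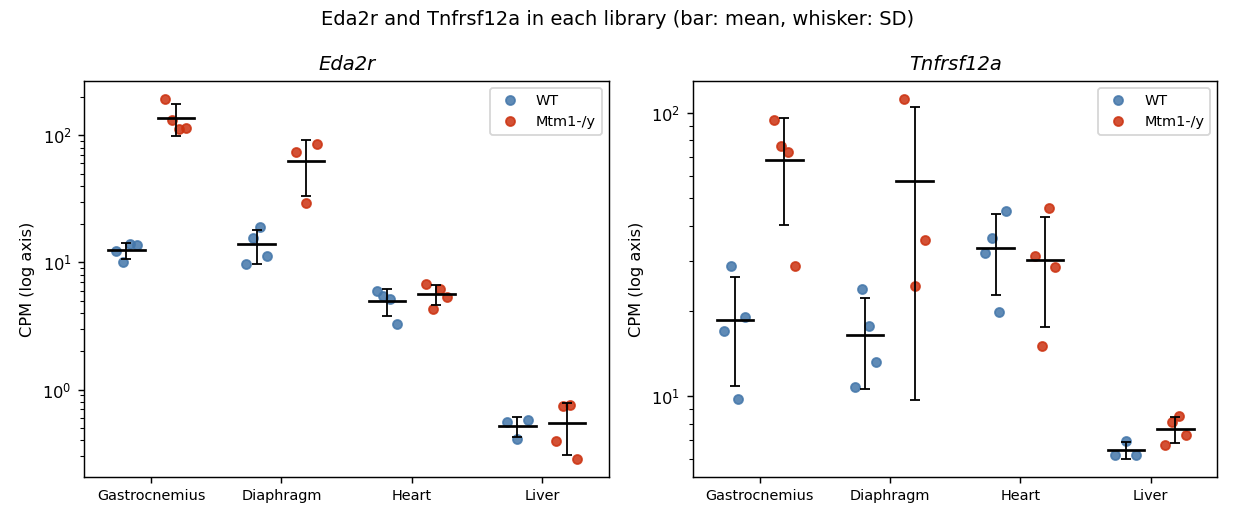
CPM of Eda2r and Tnfrsf12a on a log axis in each library, by tissue and genotype, with the group mean (bar) and SD (whisker). Eda2r in the Mtm1-/y gastrocnemius sits between 111 and 193 CPM against 10.0 to 14 CPM in WT, while heart and liver genotypes overlap for both genes.

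Tnfrsf12a rose in the Mtm1-/y gastrocnemius. The WT libraries measured 17.0, 28.7, 9.79 and 19.1 CPM, and the Mtm1-/y libraries 94.6, 76.6, 72.6 and 28.9 CPM. The groups did not overlap, but Mtm1-/y library 4 lay just above WT library 2. The rise was 3.70-fold (log2 1.89, SE 0.38, edgeR adjusted p = 0.0051), and it was called in all 16 alternative settings, with adjusted p between 0.00043 and 0.018. In that comparison, edgeR called 29.0% of all 15456 genes tested, 14.1% of them higher and 14.9% lower, so a call alone does not set a gene apart.

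In the diaphragm Tnfrsf12a measured 10.8, 24.0, 17.7 and 13.2 CPM in WT and 112, 24.4 and 35.5 CPM in Mtm1-/y libraries 1, 2 and 4. The Mtm1-/y values spread widely, and the lowest was barely above the highest WT value. The log2 fold change was 1.82 (SE 0.54), not called by edgeR (adjusted p = 0.32) and called by DESeq2 (adjusted p = 0.019). DESeq2 lost the call on leaving out any single library other than WT 2 or Mtm1-/y 2, and without Mtm1-/y library 1 the log2 fold change was 0.91 (DESeq2 adjusted p = 0.39).

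The heart had the highest WT level of Tnfrsf12a, at 32.1, 36.2, 19.8 and 45.2 CPM, and the Mtm1-/y hearts, at 31.3, 15.1, 46.2 and 28.7 CPM, covered the same range. The genotype effect in the heart was -0.15 (log2, SE 0.33), and its difference from that in the gastrocnemius was -2.01 (SE 0.55, edgeR adjusted p = 0.020, with 19.8% of genes called in that contrast). Liver levels were 6.19 to 6.96 CPM in WT and 6.72 to 8.48 CPM in Mtm1-/y libraries (log2 0.23, SE 0.14, adjusted p = 0.97).

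The ligands Eda and Tnfsf12 did not pass the test in any tissue. Eda, in which the isoforms are not told apart by gene counts, measured 7.01, 6.87, 6.61 and 5.91 CPM in the WT gastrocnemius and 4.75, 5.81, 5.18 and 6.16 CPM in the Mtm1-/y gastrocnemius (log2 -0.26, SE 0.12, edgeR adjusted p = 0.13). In the diaphragm, Eda measured 4.03 ± 0.571 CPM in WT (n = 4) and 5.02 ± 0.643 CPM in Mtm1-/y libraries (n = 3), a log2 fold change that was not called (0.34, SE 0.17, adjusted p = 0.54). Tnfsf12 measured between 4.80 and 6.52 CPM as a mean in all 8 groups and had a log2 fold change in the gastrocnemius that was 0.03 (SE 0.19, adjusted p = 0.92). Its level is a lower limit, since 731 of its 1515 exonic bases are shared on the same strand with the read-through gene Tnfsfm13 and reads assigned to both were dropped. Edar, the other ectodysplasin receptor, stayed between 0.181 and 0.743 CPM in both skeletal muscles and between 0.428 and 1.36 CPM in the heart. Of the 7 liver libraries, 4 held 0 counts of Edar, which allows up to 0.0947 to 0.111 CPM of the library total at a floor of 3 counts per library, covering counting error only, and Edar and Cd40 did not pass the count filter in the liver.

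The receptors of TNF itself rose in the gastrocnemius too. Tnfrsf1a (TNFR1), the broadly expressed death-domain receptor, measured 29.3, 28.8, 28.3 and 30.7 CPM in WT and 51.2, 44, 51.8 and 38.8 CPM in Mtm1-/y libraries. The WT libraries lay close together and well below all Mtm1-/y libraries. The rise was 1.60-fold (log2 0.68, SE 0.10, edgeR adjusted p = 0.00093) and was called in all 16 alternatives. The difference in effect from the gastrocnemius was -0.78 for the heart (SE 0.14, adjusted p = 0.0017) and -0.50 for the liver (SE 0.13, adjusted p = 0.036, with 6.34% of genes called). The liver call was lost on sharing the spread over all 30 libraries (adjusted p = 0.078) and on leaving out any of the WT gastrocnemius or WT liver libraries, Mtm1-/y gastrocnemius 1 or 3, or Mtm1-/y liver 3 or 4 (adjusted p from 0.051 to 0.085). In the diaphragm Tnfrsf1a measured 59.3, 55.7, 46.9 and 62.3 CPM in WT and 82.1, 64.0 and 52.9 CPM in Mtm1-/y libraries, which overlapped (log2 0.26, SE 0.17, adjusted p = 0.67).

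Tnfrsf1b (TNFR2), which lacks a death domain and is abundant on leukocytes, measured 4.62, 3.6, 4.47 and 4.44 CPM in the WT gastrocnemius and 7.50, 5.28, 7.55 and 5.69 CPM in the Mtm1-/y gastrocnemius. The libraries did not overlap, and the rise was 1.53-fold (log2 0.61, SE 0.15, edgeR adjusted p = 0.015). With the spread shared over all 30 libraries the same difference was not called (adjusted p = 0.25). Macrophage markers moved with it: 11 of 12 were called higher in the Mtm1-/y gastrocnemius, beside 14.1% of all genes. The summed level of these macrophage markers was 63.4 to 111 CPM in WT and 187 to 228 CPM in Mtm1-/y libraries, with no marker at 0 in every library. Their part in the rise of Tnfrsf1b or of the other receptors was not tested.

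Across the diaphragm libraries, Tnfrsf1b measured 40.1, 24.2, 10.6 and 36.4 CPM in WT libraries 1 to 4 and 18.5, 32.7 and 13.4 CPM in Mtm1-/y libraries 1, 2 and 4. The 3 libraries with the lowest marker sums, WT 3 and Mtm1-/y 1 and 4, had the 3 lowest values, and the part of liver material in them was not tested. The genotype difference was -0.34 on the log2 scale (SE 0.50, edgeR adjusted p = 0.90). In the liver, where Tnfrsf1b was the highest of any tissue, the WT libraries measured 141, 122 and 196 CPM and the Mtm1-/y libraries 129, 40.8, 91.9 and 134 CPM. The low value belonged to Mtm1-/y liver 2, in which the summed macrophage markers were 77.1 CPM against 240.1 to 337 CPM in the other liver libraries, and their part in it was not tested. The log2 fold change in the liver was -0.63 (SE 0.36, adjusted p = 0.97).

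**Figure D2:**
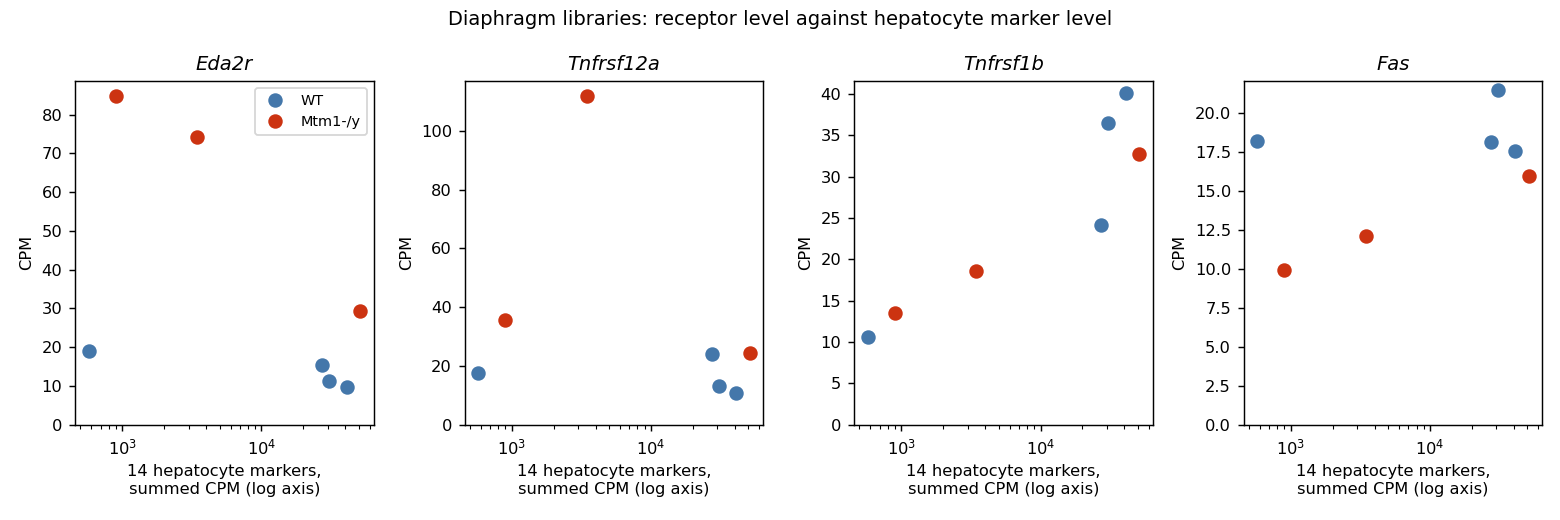
CPM of 4 receptors (linear axes from 0) in each of the 7 diaphragm libraries against the summed CPM of 14 hepatocyte markers (log axis), coloured by genotype. Tnfrsf1b is lowest in the 3 libraries with the lowest marker sums, while Eda2r is higher in all 3 Mtm1-/y libraries than in any WT library.

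The death receptors Fas and Tnfrsf10b were called in opposite directions. Fas, which starts apoptosis on binding Fas ligand, fell in the gastrocnemius, from 10.5, 8.83, 10.3 and 10.1 CPM in WT to 5.97, 6.4, 8.24 and 6.13 CPM in Mtm1-/y libraries. No Mtm1-/y library reached the WT range. The fall was 1.47-fold (log2 -0.56, SE 0.12, edgeR adjusted p = 0.0085). This call depended on the scaling: by library totals alone, under which the median log2 fold change of all genes moved from 0.02 to 0.35, the log2 fold change of Fas was -0.22 (adjusted p = 0.22). It was also lost with the hepatocyte score as a covariate (log2 -0.38, adjusted p = 0.054). The hepatocyte marker sums were 56.7 to 147 CPM in the WT and 25.8 to 90.2 CPM in the Mtm1-/y gastrocnemius. Score and genotype thus go partly together, and this fit cannot separate them. In the diaphragm Fas measured 17.6, 18.2, 18.2 and 21.5 CPM in WT and 12.1, 16.0 and 9.91 CPM in Mtm1-/y libraries. These did not overlap either, as for 9.94% of genes in the diaphragm (4.41% higher and 5.54% lower), but the difference was called neither by edgeR (log2 -0.55, SE 0.18, adjusted p = 0.36) nor by DESeq2 (adjusted p = 0.16). Of the DESeq2 fits that left out 1 diaphragm library, the one without Mtm1-/y library 2 called it (log2 -0.74, adjusted p = 0.0018). That omission leaves the genotypes unequal in hepatocyte marker sums.

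Tnfrsf10b, the mouse TRAIL death receptor, measured 3.63, 3.88, 4.28 and 3.08 CPM in the WT gastrocnemius and 6.02, 4.53, 5.30 and 4.56 CPM in the Mtm1-/y gastrocnemius. The groups did not overlap, and the rise was 1.39-fold (log2 0.47, SE 0.15, edgeR adjusted p = 0.043). It stood close to the threshold and was lost in 8 of 16 alternatives, including the omission of WT library 1, 2 or 4 or Mtm1-/y library 1 or 3, each with an adjusted p of 0.071 to 0.11. Its mean was also higher in Mtm1-/y than in WT libraries of the other tissues, at 5.50 against 4.34 CPM in the diaphragm, 6.70 against 5.47 CPM in the heart and 1.78 against 1.13 CPM in the liver, none of which passed the test. Cd40, a receptor of antigen-presenting cells, reached at most 2.27 CPM in any library and was called in no tissue, and its log2 fold change in the gastrocnemius was -0.17 (SE 0.33, adjusted p = 0.73).

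**Figure D3:**
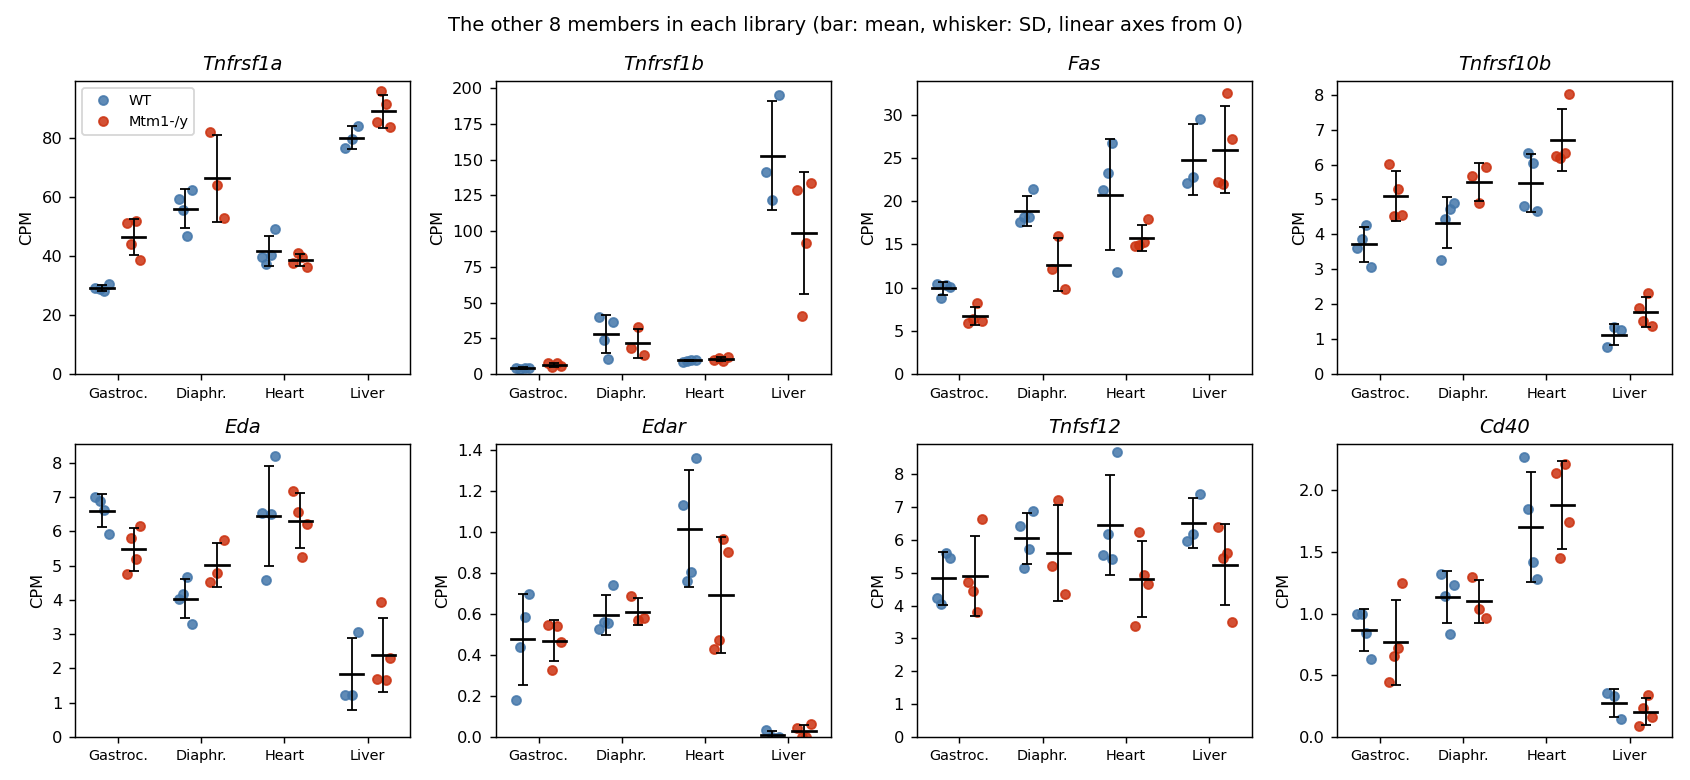
CPM of the other 8 genes in each library on linear axes from 0, by tissue and genotype, with group mean (bar) and SD (whisker). In the gastrocnemius, Tnfrsf1a, Tnfrsf1b and Tnfrsf10b lie higher and Fas lower in Mtm1-/y libraries without overlap.

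In the gastrocnemius, therefore, 4 of the 9 genes tested were called higher (Tnfrsf12a, Tnfrsf1a, Tnfrsf1b and Tnfrsf10b), 1 was called lower (Fas) and 4 were not called, beside the 29.0% called among all genes by edgeR and 25.7% by DESeq2. The same 5 genes were those whose libraries did not overlap, which held for 30.6% of all genes. No member was called by edgeR in the diaphragm, where 3 of 10 had an unadjusted p under 0.05, beside 1806 of all 16796 genes. DESeq2 called 2 higher there (Eda2r and Tnfrsf12a), against 1.70% of all genes called higher. None of the 10 in the heart or of the 8 tested in the liver was called by edgeR or DESeq2. None had an unadjusted p under 0.05 by edgeR, against 1353 of 15238 genes in the heart and 606 of 14305 in the liver. In these organs edgeR called 0.00656% and 0% of all genes, and DESeq2 0.453% and 0.163% (0.0326% higher in the liver). In the heart no member's libraries were without overlap, against 4.17% of all genes (2.15% higher and 2.03% lower), and in the liver 1 was, Tnfrsf10b, which was higher, against 2.22% of all genes higher, 3.33% lower and 5.56% in either direction.

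Differences of the genotype effect between tissues were tested for the 10 genes over 6 pairs of tissues, without Eda2r where the gastrocnemius was one of the pair. By edgeR 3 were called, Tnfrsf12a and Tnfrsf1a for heart minus gastrocnemius and Tnfrsf1a for liver minus gastrocnemius. In these contrasts edgeR called 19.8% and 6.34% of all genes, so the count of calls is no result about the 10 genes. DESeq2 called 7, in contrasts where it called 22.0% of all genes for heart minus gastrocnemius and 11.9% for liver minus gastrocnemius. The other 4 were Eda2r for heart minus diaphragm, and for liver minus gastrocnemius Tnfrsf12a (-1.63, DESeq2 adjusted p = 0.012), Fas (0.64, adjusted p = 0.035) and Tnfrsf1b (-1.22, adjusted p = 0.042). DESeq2 gave no adjusted p for 8 of the 10 genes for liver minus heart, all but Tnfrsf1a and Tnfrsf1b, nor for Edar for liver minus gastrocnemius.

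**Figure D4:**
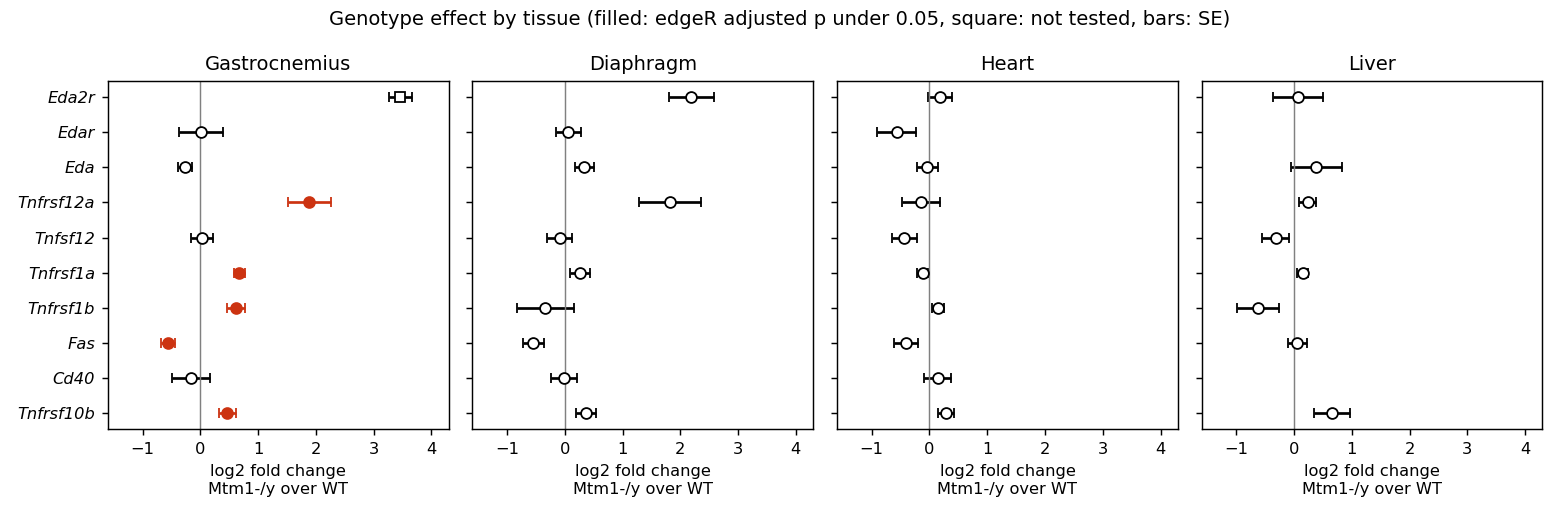
Log2 fold change of Mtm1-/y over WT (x axis, with SE bars) for the 10 genes in 4 tissues, filled where the edgeR adjusted p was under 0.05 and square for Eda2r in the gastrocnemius, which was not tested. Eda2r and Tnfrsf12a stand out in the 2 skeletal muscles, at 3.47 and 1.89 in the gastrocnemius and 2.19 and 1.82 in the diaphragm.

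Per kilobase of exon, which allows genes to be compared with each other, Tnfrsf1a (11.3 ± 0.393 CPM per kb, SD, n = 4) and Tnfrsf12a (9.64 ± 4.03) were the most abundant of the 10 genes in the WT gastrocnemius, and Eda2r was the fifth at 2.12 ± 0.310. In the Mtm1-/y gastrocnemius Tnfrsf12a (35.3 ± 14.4) and Eda2r (23.3 ± 6.46) were the first and second, above Tnfrsf1a (17.9 ± 2.40). In the heart of both genotypes Tnfrsf12a and Tnfrsf1a were the highest and Eda2r was at 0.842 CPM per kb in WT. The liver order was led by Tnfrsf1b in WT (40.1 ± 10.0) and by Tnfrsf1a in Mtm1-/y libraries (34.4 ± 2.17). This mean order did not hold in each Mtm1-/y liver. Tnfrsf1b was above Tnfrsf1a in livers 1 (33.8 against 32.9) and 4 (35.0 against 32.3). It was below in livers 2 (10.7 against 37.0) and 3 (24.1 against 35.3). Neither gene was called between genotypes in the liver.

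Among WT tissues, 42 of the 60 comparisons of the 10 genes over 6 pairs of tissues were called, in contrasts that called most genes. These shares were 54.4% for diaphragm against gastrocnemius, 51.7% for heart against diaphragm, 61.3% for heart against gastrocnemius, 76.1% for liver against diaphragm, 76.4% for liver against heart and 79.5% for liver against gastrocnemius. Eda2r was highest in skeletal muscle, at 13.9 ± 4.2 CPM in the diaphragm and 12.5 ± 1.83 CPM in the gastrocnemius, then 4.96 ± 1.18 CPM in the heart and 0.514 ± 0.0918 CPM in the liver. The 2 skeletal muscles did not differ beyond their spread (log2 0.12, SE 0.21, edgeR adjusted p = 0.66), although by library totals alone the diaphragm was higher (log2 0.63, adjusted p = 0.013). Heart minus gastrocnemius was -1.37 (SE 0.22, edgeR adjusted p = 7.8e-05), and liver minus heart was -3.30 (SE 0.30, adjusted p = 2.1e-07).

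Tnfrsf12a had another order, with the heart (33.3 ± 10.6 CPM) above the gastrocnemius (18.6 ± 7.79) and the diaphragm (16.4 ± 5.78), and the liver last (6.45 ± 0.439). The heart and gastrocnemius differed narrowly (log2 0.80, SE 0.31, edgeR adjusted p = 0.038), a call lost on leaving out any of 6 libraries (gastrocnemius 1, 3 or 4, heart 1, 2 or 4; adjusted p up to 0.10) and with all 30 libraries (adjusted p = 0.083), and the 2 skeletal muscles did not differ beyond their spread (adjusted p = 0.58). Tnfrsf1a (80.1 ± 3.76 CPM), Tnfrsf1b (153 ± 38.2) and Fas (24.8 ± 4.07) had their highest mean in the liver. For Tnfrsf1a this order depended on the scaling: liver minus diaphragm was 0.47 (log2, adjusted p = 0.0014), and by library totals alone -0.012 (adjusted p = 0.94). For Tnfrsf1b all 6 pairs of tissues were called, but WT diaphragm 3, the library with the least hepatocyte signal, stood at 10.6 CPM, next to the hearts at 8.80 to 10.1 CPM. Liver, heart and diaphragm did not differ in Fas beyond their spread (adjusted p between 0.13 and 0.57), and all 3 were above the gastrocnemius (adjusted p between 6.0e-05 and 0.0013).

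Tnfrsf10b, Cd40 and Eda were lowest in the liver, each at an edgeR adjusted p of 0.0018 or less against every other tissue, and Edar held at most 2 counts in any liver library. Tnfsf12 was called for no pair of tissues (adjusted p from 0.070 to 0.90), although by library totals alone it was higher in the diaphragm and the heart than in the gastrocnemius (adjusted p = 0.0019 and 0.00039) and lower in the liver than in the heart (adjusted p = 0.019).

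The TNF receptor superfamily as a whole had 28 genes in the table, of which 23 besides Eda2r were tested in the gastrocnemius. There, edgeR called 11 higher and 2 lower, as did DESeq2, beside the 14.1% of all genes that edgeR called higher and the 14.9% called lower. Their median log2 fold change was 0.47 against 0.02 for all genes. Of the 16 receptors that are not among the 10 genes, 7 were called higher and 1 lower, beside the same 14.1% and 14.9%. Both sets of counts include Tnfrsf18 and Cd27, each near the detection limit in the genotype where it was lower. With no filter on low counts, edgeR called 10 receptors higher and 2 lower, Eda2r again left out. Tnfrsf23, a decoy receptor for TRAIL, went from 7.20 ± 0.636 to 30.7 ± 9.43 CPM (log2 2.10, SE 0.20, edgeR adjusted p = 0.00018). Tnfrsf22, its neighbour in the same gene cluster, went from 3.06 ± 0.266 to 7.36 ± 2.46 CPM (log2 1.28, SE 0.21, adjusted p = 0.0021). These paralogs are alike in sequence, so the split of reads between them is uncertain.

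Tnfrsf11b (osteoprotegerin), a soluble decoy receptor for RANKL, rose from 0.376 ± 0.129 to 1.71 ± 0.458 CPM (log2 2.17, SE 0.31, adjusted p = 0.00097). Ltbr, the lymphotoxin-beta receptor, rose little and evenly, from 29.1 ± 2.09 to 36.5 ± 2.66 CPM (log2 0.34, SE 0.08, adjusted p = 0.0087). Ngfr, the p75 neurotrophin receptor, rose from 1.88 ± 0.227 to 3.25 ± 0.685 CPM (log2 0.80, SE 0.19, adjusted p = 0.012). Tnfrsf13b and Tnfrsf18, known mainly from lymphocytes, rose at levels under 1 CPM (log2 1.44 and 2.16, adjusted p = 0.0048 and 0.0072). Cd27, a receptor of T and B cells, fell from 1.03 ± 0.484 to 0.139 ± 0.0735 CPM (log2 -2.83, SE 0.49, adjusted p = 0.0024). It entered the test mainly through the WT libraries, so its call and fold change have the same limit as those of Tnfrsf18. The summed level of 7 B cell markers lay between 60.1 and 83.8 CPM in WT and between 5.87 and 9.41 CPM in Mtm1-/y libraries. No marker was at 0 in every library, and 1 of the 2 markers tested, Ighm, was called lower, beside 14.9% of all genes. The median log2 fold change of these 2 was -1.75, and the other markers did not pass the count filter. The sum therefore does not show a fall of each marker. Of 11 T and NK cell markers 0 passed the filter, and their sums were 0.574 to 1.28 CPM in WT and 1.12 to 1.57 CPM in Mtm1-/y libraries. The part of B or T cells in the level of Cd27 was not tested.

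By library totals alone, 14 receptors were called higher and 1 lower in the gastrocnemius, Eda2r again left out. That scaling also turned the split of all 15456 genes, from 2173 higher and 2306 lower to 7647 higher and 647 lower. With the spread shared over all 30 libraries the receptor counts were 7 and 2, and with an absolute log2 fold change over 1 also required they were 6 and 1, in a comparison where that rule called 4.84% of all genes higher and 1.79% lower. None of the 23 receptors tested in the diaphragm was called by edgeR, with 5 at an unadjusted p under 0.05, beside 1806 of all 16796 genes. DESeq2 called 4 higher there, Eda2r, Tnfrsf12a, Tnfrsf23 (log2 1.46, adjusted p = 0.0052) and Tnfrsf11b (log2 1.34, adjusted p = 0.034), against 1.70% of all genes called higher. In the heart and liver no receptor was called by either tool. By edgeR, 1 of 22 and 0 of 19 had an unadjusted p under 0.05, beside 1353 of 15238 and 606 of 14305 genes.

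**Figure D5:**
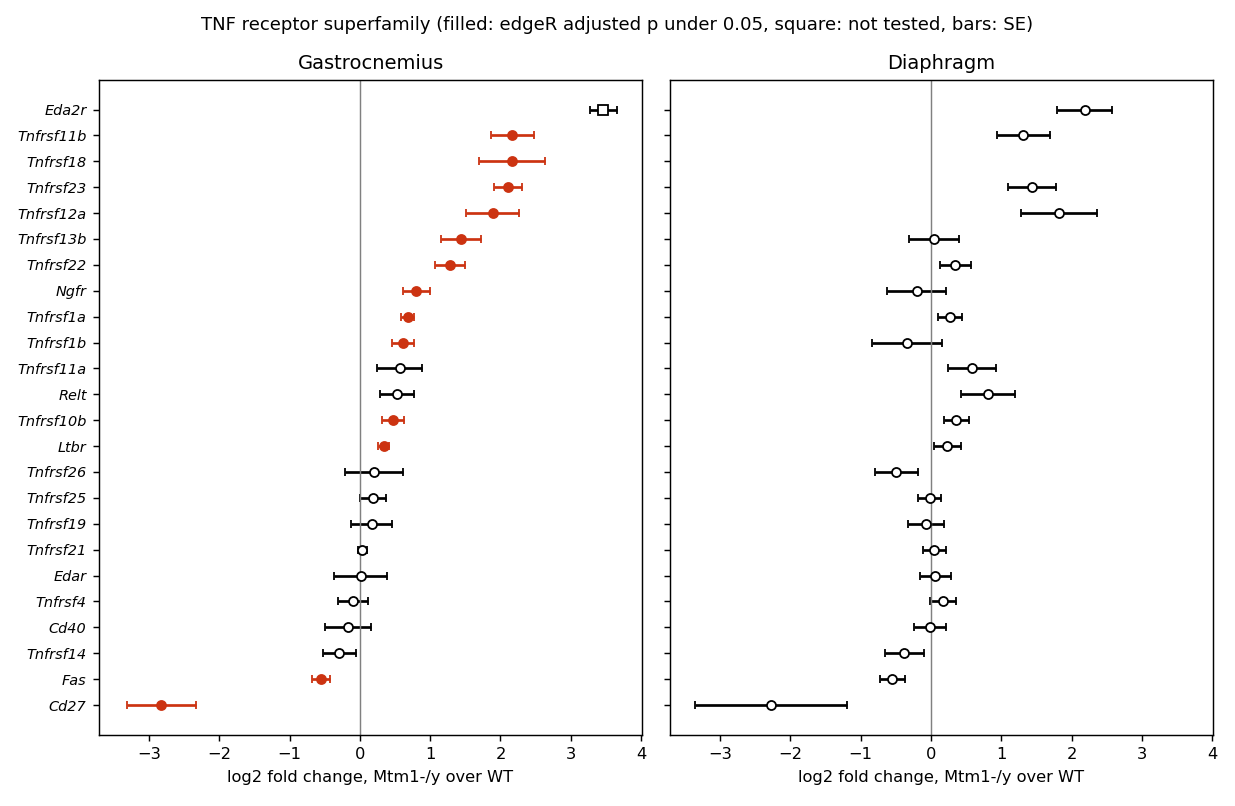
Log2 fold change of Mtm1-/y over WT (x axis, with SE bars) for Eda2r and the 23 other TNF receptor genes tested in the gastrocnemius, and for those also tested in the diaphragm, filled where the edgeR adjusted p was under 0.05. Eda2r, not tested in the gastrocnemius, has the highest value in both muscles, and Cd27 the lowest.

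Of 17 TNF-family ligands in the table, 5 passed the count filter in the gastrocnemius and none was called by edgeR or DESeq2 in any tissue. At an unadjusted p under 0.05 edgeR had 0 of 5 in the gastrocnemius, 1 of 8 in the diaphragm, 2 of 8 in the heart and 0 of 3 in the liver. Among all genes it had 6427 of 15456, 1806 of 16796, 1353 of 15238 and 606 of 14305 in these tissues.

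Adaptors and NF-kB genes downstream of these receptors were also tested in the gastrocnemius. Of 21 adaptors and signalling genes, 6 were called higher and 1 lower (median log2 fold change 0.21). These 7 of 21 stand near the 29.0% of all genes called (14.1% higher and 14.9% lower), so the count is no result about the list. Map3k14, which encodes NIK, the kinase of non-canonical NF-kB, went from 9.69 ± 0.884 to 21.5 ± 5.45 CPM (log2 1.16, SE 0.18, edgeR adjusted p = 0.0015). Traf3, which holds NIK at a low level, went from 32.7 ± 1.34 to 48.4 ± 4.92 CPM (log2 0.58, SE 0.08, adjusted p = 0.00088). Birc3, an inhibitor of apoptosis in the same complex, rose from 5.44 ± 0.910 to 11.8 ± 2.40 CPM (log2 1.12, SE 0.17, adjusted p = 0.0012). Tab2, an adaptor of the TAK1 kinase in canonical signalling, was the gene called lower, from 170.2 ± 20.2 to 96 ± 7.81 CPM (log2 -0.81, SE 0.10, adjusted p = 0.00043).

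Of 13 NF-kB subunits, inhibitors and kinases, 7 were called higher and 1 lower (median log2 fold change 0.33), beside 14.1% and 14.9% of all genes. Nfkb2 and Relb, the 2 subunits of the non-canonical dimer, went from 13.2 ± 0.259 to 53 ± 12.0 CPM (log2 2.01, adjusted p = 4.2e-05) and from 9.43 ± 1.76 to 19.3 ± 3.98 CPM (log2 1.05, adjusted p = 0.0016). Nfkbie and Bcl3, which belong to the inhibitor family, rose with log2 fold changes of 2.49 and 2.11 (adjusted p = 6.0e-05 and 0.0012). The gene called lower was Nfkbia, the classical inhibitor (log2 -0.39, adjusted p = 0.022), which was named after its value was seen. In the diaphragm edgeR called none of the 22 adaptors and 13 NF-kB genes, with 2 and 3 at an unadjusted p under 0.05, beside 1806 of all 16796 genes. DESeq2 called 0 and 2 higher, against 1.70% of all genes. In the heart and liver neither tool called any. At most 1 gene of each list had an unadjusted p under 0.05 by edgeR, beside 1353 of 15238 and 606 of 14305 genes.

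Further lists covered p53 targets and muscle denervation and atrophy, whose counts in the gastrocnemius stand beside the same 14.1% of all genes higher and 14.9% lower. Of 19 p53 target genes tested in the gastrocnemius, among them Tnfrsf10b and Fas, 11 were called higher and 2 lower. Gadd45a (log2 2.32, adjusted p = 0.00026), Plk2 (log2 1.17, adjusted p = 0.00062) and Cdkn1a (log2 1.60, adjusted p = 0.0018) were higher and Ccng1 was lower (log2 -0.68, adjusted p = 0.0014). Another of the 11, Perp, named after its values were seen, had a spread above its mean in Mtm1-/y libraries (23.5 ± 38.1 CPM, against 1.72 ± 0.401 CPM in WT, edgeR adjusted p = 0.026), and DESeq2 gave it no adjusted p. Of 15 denervation-responsive genes, 13 were called higher and none lower by edgeR or DESeq2, led by Ncam1 (log2 1.77, adjusted p = 0.00015) and Runx1 (log2 3.73, adjusted p = 0.00016). Gadd45a is among these 13 as well as among the p53 targets, so the lists are not separate. An unadjusted p under 0.05 was found for 14, beside 6427 of all 15456 genes. Of 8 ubiquitin ligases of muscle atrophy, 4 were higher and 2 lower. Among those higher were Fbxo30 at log2 0.83 (adjusted p = 0.00079), Fbxo32 at 1.20 (adjusted p = 0.0031) and Trim63 at 0.89 (adjusted p = 0.0043). In the diaphragm, edgeR called none of the 20 p53 targets, 15 denervation-responsive genes and 8 ligases. Of these, 4, 10 and 1 had an unadjusted p under 0.05, beside 1806 of all 16796 genes. DESeq2 called 7 denervation-responsive genes higher and none of the other lists, against 1.70% of all genes called higher. In the heart neither tool called any of the 20, 7 and 8 genes tested. By edgeR 3, 0 and 0 had an unadjusted p under 0.05, beside 1353 of all 15238 genes. The liver had none of 20, 5 and 6 called by either tool, with 1, 0 and 0 at an unadjusted p under 0.05, beside 606 of all 14305 genes.

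Marker levels of the gastrocnemius differed as well. The 10 skeletal muscle markers summed to 223766 to 266217 CPM in the WT and 141438 to 155162 CPM in the Mtm1-/y gastrocnemius. By edgeR, 5 of 8 fibroblast and 5 of 8 adipocyte markers were called higher, beside 14.1% of all genes. Their sums overlapped between genotypes. Fibroblast markers summed to 3235 to 8744 CPM in WT and 3758 to 10776 CPM in Mtm1-/y libraries, and adipocyte markers to 238 to 391 and 333 to 478 CPM. Of 8 endothelial markers 3 were called lower, beside 14.9% of all genes. Their sums were 468 to 597 CPM in WT and 345 to 452 CPM in Mtm1-/y libraries. Epidermal markers summed to 10.9 to 15.5 CPM in WT and to 39.1, 37.9, 376 and 46.6 CPM in Mtm1-/y libraries 1 to 4. Of the 3 tested, 2 were called higher by edgeR and 1 by DESeq2, beside 14.1% and 12.4% of all genes. Library 3 stood apart in these markers. The part of these differences in the levels of the receptors was not tested.

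Genes with a pattern most like that of Eda2r were ranked by Pearson's r between the means of log2 CPM of the 8 groups, over 15946 genes, as a description. The 8 highest were Rgs11 (r = 0.997), Arhgdig (0.993), Cilp (0.992), Atf3 (0.990), Fez1 (0.990), Ccdc110 (0.987), Fbxl2 (0.986) and Arl6ip5 (0.982). All 8 points share the scaling of their libraries, and the 2 Mtm1-/y skeletal muscle groups set the high end. Cilp, an extracellular matrix protein, had group means that went from 44.8 to 509 CPM in the gastrocnemius and from 62.6 to 299 CPM in the diaphragm, with 8.04 and 6.70 CPM in the WT and Mtm1-/y heart. Atf3, a stress-induced transcription factor, went from 9.35 to 46.1 CPM in the gastrocnemius and from 8.32 to 41.1 CPM in the diaphragm, with 6.62 and 6.57 CPM in the heart. By Spearman's rho none of these 8 was among the 7 genes with the highest value, although their rho lay between 0.929 and 0.976. Among the TNF receptors, Tnfrsf23 was the most like Eda2r (r = 0.975).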

How the data were processed

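Raw read counts per gene were deposited for 30 libraries. The authors sequenced stranded poly(A) libraries, trimmed reads with cutadapt 1.10, used STAR 2.5.3a for alignment to the mm10 genome, and counted unambiguous, unique reads per Ensembl gene with HTSeq 0.6.1p1. The strand setting is not given in the sources used here. Reads that fall on overlapping genes were dropped by this counting, which lowers genes such as Tnfsf12.

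Depth was 24873817 to 44289343 counts per library over 36103 genes. Genotypes were compared within each tissue with edgeR 4.0.16 (R 4.3.3): filterByExpr at a count minimum of 10, TMM, the quasi-likelihood test and Benjamini-Hochberg adjustment over all genes tested. WT tissues, and differences of the genotype effect between tissues, were tested in the same way. DESeq2 1.42.0, limma 3.58.1 (voom with sample weights), other scalings, filters, covariates and the omission of each library were alternatives. Library totals alone, and DESeq2 without each diaphragm library, were added after the data were seen. The scripts were tested on simulated data. Each p-value sets a difference between groups against the spread between these libraries.

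The genes and lists were chosen with earlier results of these data known. Named genes were the 10 genes, other TNF-family genes called in any tissue (up to 12), up to 4 called genes of each other list by smallest p, the 8 genes most like Eda2r, and Mtm1. Nfkbia and Perp were named outside this rule.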

Additional observations from a re-analysis of the deposited data

Results flagged for a closer look

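In groups of 4 libraries, a highest or lowest library was marked where its gap to the nearest other library took up an unusually large part of the group's range (Dixon's test at its 95% limit). Of 60 gene-and-group sets, 4 were marked, and chance marks about 1 in 20. The highest library stood apart for Edar in the WT diaphragm (gap over range 0.846, library 4 at 0.743 CPM), Fas in the WT diaphragm (0.835, library 4 at 21.5 CPM), Fas in the Mtm1-/y heart (0.863, library 4 at 17.9 CPM) and Tnfrsf10b in the Mtm1-/y heart (0.932, library 4 at 8.03 CPM).

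The genotype effect differed between tissues by edgeR for Tnfrsf12a, heart minus gastrocnemius (-2.01), for Tnfrsf1a, heart minus gastrocnemius (-0.776), and for Tnfrsf1a, liver minus gastrocnemius (-0.505). Of all genes, edgeR called 19.8% for heart minus gastrocnemius and 6.34% for liver minus gastrocnemius, so a call alone does not set a gene apart.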

How the results depend on the processing

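Of 2699 pairs of a value and an alternative, 2513 were the same, 47 lost and 39 gained a call, 99 moved and 1 reversed. The same meant an equal sign and side of the threshold, an equal or similar count, or, for Eda2r in the gastrocnemius, a shift within its spread. Moved meant a change of sign with no call in either fit, or a less similar count. A change of sign with a call in either fit was a reversal. The reversed value was Tnfrsf1a in WT liver minus diaphragm, at -0.012 by library totals alone (adjusted p = 0.94). In the gastrocnemius, 11 receptors besides Eda2r were called higher and 2 lower. By library totals alone, which moved the median log2 fold change of all genes from 0.02 to 0.35, the counts were 14 and 1, with the hepatocyte covariate 1 was lower, with all 30 libraries together 7 were higher, and with an absolute log2 fold change over 1 they were 6 and 1. In the diaphragm, where edgeR called 0 higher, DESeq2 called 4, the hepatocyte covariate 1 and all 30 libraries together 3. Differences of effect between tissues numbered 3 by edgeR and 7 by DESeq2, and 0 of the 8 genes most like Eda2r were among those with the highest Spearman's rho. Leaving out 1 library gave 10 to 12 receptors higher and 2 to 2 lower in the gastrocnemius, 0 to 2 higher and 0 to 0 lower in the diaphragm by edgeR (DESeq2 1 to 5 higher and 0 to 1 lower), and 0 to 0 in heart and liver. It gave 39 to 42 calls between WT tissues and 2 to 4 differences of effect. Replicate numbers did not pair WT with Mtm1-/y libraries within a tissue, with correlations of same-numbered libraries from -0.64 to 0.46. Pairing across tissues was not tested. With the number as a replicate block, 10 receptors were higher and 2 lower in the gastrocnemius and 0 in the other tissues. Depth limits Edar and Cd40 in the liver.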
